A study of Mus musculus with 16 samples.

Results

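Prostanoids and leukotrienes are lipid mediators that macrophages make from arachidonic acid. Cytosolic phospholipase A2, the product of Pla2g4a, frees arachidonic acid from membranes, and the cyclooxygenases encoded by Ptgs1 and Ptgs2 turn it into prostaglandin H2. The synthases encoded by Ptges, Hpgds and Tbxas1 make prostaglandin E2, prostaglandin D2 and thromboxane A2 from that precursor. In the other branch, the protein encoded by Alox5ap presents arachidonic acid to the lipoxygenase that begins leukotriene synthesis. Ptger2 and Ptger4 encode receptors for prostaglandin E2, and Ptgir encodes the receptor for prostacyclin. Ptgs1 is regarded as the constitutive cyclooxygenase of macrophages and Ptgs2 as the form that bacterial products induce.

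These 10 genes were followed in RAW264.7 cells, a macrophage-like mouse cell line, on Agilent 1-colour mouse arrays. All non-control probes whose gene name on the array equals that of a member were taken, which gave 12 probes with 21 spots, of the 55681 probes, 59305 spots and 34836 gene names of the array. Ptges and Tbxas1 had 2 probes each, the other genes had 1, and the Ptgs2 probe was printed in 10 spots.

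The design crossed cordycepin with LPS. Cordycepin is an adenosine analogue that inhibits polyadenylation, and LPS is a bacterial cell wall component that macrophages respond to. Cells of the DMSO group received the solvent DMSO and those of the cordycepin group 20 μM cordycepin in DMSO, each for 120 min without LPS. The LPS+DMSO and LPS+cordycepin groups had the same additions for the same 120 min, with LPS at 1 μg/ml in the last 60 min. All 4 groups had been moved to low serum medium beforehand. Each group had 4 biological replicates with 1 array each (16 arrays), and each replicate number was collected on its own day from wells of 1 plate. All are cultures of 1 cell line, so the replicates carry no variation between animals, and fewer cells and less RNA per cell cannot be told apart.

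Levels are log2 of the processed spot intensity after each array was scaled to its 75th percentile, so a difference of 1 is a 2-fold difference. They are not compared between probes, because probes differ in brightness. A gene was tested where, in 1 group or more, all 4 arrays read a probe of it well above background, and a gene with several such probes was tested on the brightest. limma was used to fit the 4 group means over the 16 arrays, and a gene passed at an adjusted p under 0.05 over the 15877 genes tested. Of the 10 genes, 9 were tested and Ptger2 was not.

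Between 21999 and 30362 spots were well above background per array, and no spot was saturated. Replicates 1 and 2 of every group were on slide 1 and replicates 3 and 4 on slide 2, where more spots were well above background (27151 to 30362, against 21999 to 26055). The 4 genes used to check the LPS labels, Tnf, Il1b, Cxcl2 and Nfkbia, all passed as higher in LPS+DMSO than in DMSO, Tnf by 105-fold. Of 10 macrophage markers, 9 exceeded background clearly on every array. Of 6 T cell markers, 3 (Cd3e, Cd4 and Lck) did so and Cd3g did on none. Of 6 fibroblast markers, Col3a1, Pdgfra and Thy1 did on none. Col1a1, Col1a2 and Dcn did on some arrays, but none of them on all 4 of a group. Of 8 mast cell markers, the 6 genes Kit, Cpa3, Mcpt4, Cma1, Ms4a2 and Fcer1a were well above background on no array. Tpsb2 was so read by all 4 cordycepin arrays and Hdc by all 4 LPS+cordycepin arrays. Of the B cell markers, Cd79a and Cd79b were read well above background by all 4 LPS+cordycepin arrays, and Ms4a1 by no array. The log2 of the summed signals of Cd79a, Cd79b and Pax5, in which the brightest probe weighs most, was 8.56 to 10.19 in LPS+cordycepin. It was 6.29 to 7.35 in the other groups. The log2 of the summed signals of 6 neutrophil markers was 10.40 to 11.25 in LPS+cordycepin and 9.53 to 10.64 in the other groups. Of these 6, Ly6g and S100a9 were well above background on no array. The part of these markers in the results below was not tested.

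The 3 probe sequences below belong to the genes that passed the test, and they show which piece of each mRNA the values stand for. The Ptgs2 probe lies at chr1:151954744-151954803 on the plus strand of mm9 and begins at base 3746 of the transcript, and bases 26 to 55 of it are given with the pentamer ATTTA in capitals. The Ptges probes lie on the minus strand of chromosome 2. The proximal one, at chr2:30748214-30748273, begins at base 364 of the transcript, in the coding part, and is given whole. The distal one, at chr2:30744995-30745054, begins at base 3583 in the 3′ untranslated part, and bases 30 to 59 are given with the hexamer ATTAAA, a variant polyadenylation signal, in capitals. The starts of these 2 probes are 3219 bases apart in the same transcript.
Ptgs2 probe, bases 26 to 55: ttaggctgttggaATTTAcgcataaagcag
Ptges proximal probe: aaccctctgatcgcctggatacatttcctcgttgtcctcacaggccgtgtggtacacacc
Ptges distal probe, bases 30 to 59: aagtcagccccaATTAAAtgctttccttta
ATTTA, read on the transcript strand, was present in 7.71% of all 55681 probes and in 1 of the 12 member probes. ATTAAA was present in 3.95% of all probes and in 1 member probe, while AATAAA was in no member probe. These are descriptions of the probes and not of regulatory sites.

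RefSeq promoter sequences (GRCm38.p6) were at hand for 9 of the 10 genes. That of Ptgs2, the gene with the largest changes here, is given for the 250 bases before the annotated start, at chr1:150099781-150100030 on the plus strand, with the letters TTGCNNAA (a C/EBP-like motif) in capitals.
Ptgs2 promoter: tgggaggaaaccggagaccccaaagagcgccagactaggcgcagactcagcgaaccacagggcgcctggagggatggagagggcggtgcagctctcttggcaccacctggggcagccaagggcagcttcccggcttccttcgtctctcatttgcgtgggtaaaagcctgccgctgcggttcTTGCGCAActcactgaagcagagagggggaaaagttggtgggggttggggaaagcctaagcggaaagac
The match is 69 to 62 bases before the start and reads the same on both strands. On either strand, 9.56% of the 32851 promoter windows held TTGCNNAA. An NF-kB-like pattern (GGG, 5 free bases, CC), present in 45.8% of the windows, also matched once, 23 to 14 bases before the start, and does not overlap the first match. TATAAA (12.4% of windows), CACGTG (6.02%) and TGACG (17.8%) had no match in these 250 bases of Ptgs2, and none of the 5 motifs matched in the same window of Ptgs1. Bases past the annotated start or farther upstream were not searched, so the promoters are not said to lack these motifs.

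Ptgs2 was the gene of the set that responded most to LPS. It rose 8.99-fold with LPS, and with cordycepin present before LPS it reached a level 2.78-fold lower. Of the other genes, Ptges alone passed a test, with changes of 1.21-fold to 1.28-fold at its brightest probe. At its proximal probe, which the gene counts below do not use, the LPS change was 2.08-fold (limma over all probes kept, adjusted p 0.0026). The LPS groups alone admitted this probe, where it is high, so the pass is not read as support. That probe did not pass in LPS+cordycepin against LPS+DMSO (log2 change -0.11, limma, adjusted p 0.817), where the brightest probe passed as higher. Pla2g4a, Ptgs1, Hpgds, Tbxas1, Ptger4, Ptgir and Alox5ap passed in none of the comparisons. With the replicate number, which pairs the arrays by day, as a block, Ptgir passed with LPS and with cordycepin alone (limma, adjusted p 0.0428 and 0.0273). Over all genes this block moved the counts passing from 2372 to 2882 and from 2505 to 2939.

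In LPS+DMSO against DMSO, 2 of the 9 genes tested passed, both higher, where 14.9% of all genes passed (5.14% higher and 9.8% lower). In LPS+cordycepin against LPS+DMSO, 1 gene was lower and 1 higher, where 19.2% of all genes passed (10.8% higher and 8.45% lower). In cordycepin against DMSO, again 1 was lower and 1 higher, where 15.8% passed (8.23% higher and 7.55% lower). In LPS+cordycepin against cordycepin, 1 gene was higher, where 8.15% passed (3.54% higher and 4.61% lower). At least 2-fold as well, 1 gene was left with LPS (Ptgs2, where 4.59% of all genes were), 1 in LPS+cordycepin against LPS+DMSO (Ptgs2, 7.46%), none in cordycepin against DMSO (5.55%) and 1 in LPS+cordycepin against cordycepin (Ptgs2, 2.91%). The difference between the 2 LPS responses passed for none of the 9 by limma, where 0.554% of all genes passed at an adjusted p under 0.05. At an unadjusted p under 0.05 the count was 1 (Ptgs2). The share of all genes at that threshold is not given here, so this count is not set against the 0.554%.

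With counts this small the shares are not set apart from those of all genes. The comparisons share arrays (LPS+DMSO arrays enter the first and the second, for example), so they are not independent. The median log2 change of the 9 genes was -0.09 with LPS, where that of all genes was -0.04. It was -0.06 in LPS+cordycepin against LPS+DMSO, where that of all genes was 0.03.

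**Figure D1:**
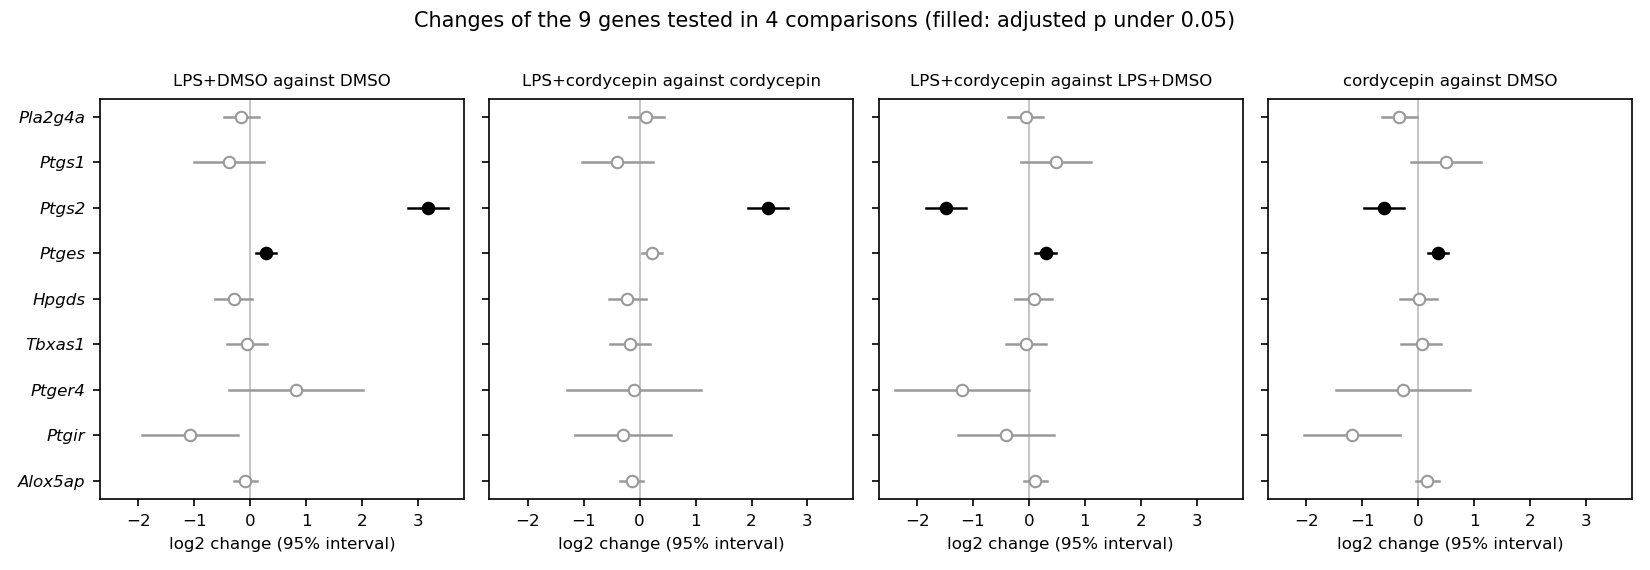
Log2 change (x axis) of each of the 9 genes tested (y axis) in 4 comparisons, 1 per panel. Points are limma estimates and bars their 95% intervals, and filled black points passed at an adjusted p under 0.05. Ptgs2 lies farthest from 0 in the LPS panels and in LPS+cordycepin against LPS+DMSO, and Ptger4 and Ptgir have the widest intervals.

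Ptgs2 encodes the inducible cyclooxygenase. Its level was 9.17, 9.37, 8.99 and 8.48 in the DMSO replicates 1 to 4 and 8.29, 8.40, 8.57 and 8.31 in the cordycepin replicates. In LPS+DMSO it was 12.09, 12.44, 11.91 and 12.25. In LPS+cordycepin it was 10.72, 10.96, 10.57 and 10.54. All 4 LPS+DMSO arrays were above all others, the 4 LPS+cordycepin arrays came next without overlap, and the DMSO and cordycepin arrays overlapped. The 10 spots of an array differed by little, with an SD of 0.020 to 0.319 on the log2 scale, the largest on the 1 array that had a spot marked as an outlier, which was left out of the level.

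LPS raised Ptgs2 by 3.17 ± 0.17 (log2, SE, n = 4 per group), with an adjusted p of 2.80e-09 by limma. The change was 2.92, 3.07, 2.93 and 3.77 on the 4 days, 2.99 on slide 1 and 3.35 on slide 2. In the presence of cordycepin LPS still raised it, by 2.30 ± 0.17 or 4.93-fold (limma, adjusted p 1.88e-07), on all 4 days.

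With LPS present, Ptgs2 was lower in cells given cordycepin by a log2 change of -1.48 ± 0.17 (limma, adjusted p 8.23e-06). The changes on the 4 days were -1.37, -1.48, -1.35 and -1.71, and those within the slides were -1.42 and -1.53. The interval of the change was -1.83 to -1.12. The LPS+cordycepin level stayed above that of unstimulated cells, by 1.69 ± 0.17 over DMSO (limma, adjusted p 1.37e-06).

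Without LPS, Ptgs2 was also lower with cordycepin, by -0.61 ± 0.17 or 1.53-fold (limma, adjusted p 0.0202). The direction held on all 4 days (-0.88, -0.97, -0.42 and -0.17), although the groups overlapped, and the change was -0.92 on slide 1 and -0.30 on slide 2. The call was lost without DMSO replicate 1 (-0.55, adjusted p 0.0609) or replicate 2 (-0.49, adjusted p 0.0612) and without cordycepin replicate 1 (-0.58, adjusted p 0.0543) or replicate 4 (-0.58, adjusted p 0.0568), all by limma. Of the 18 settings other than leaving 1 array out, 7 also lost it. Among these were the methods' t-test (Benjamini-Hochberg adjusted p 0.118), normexp background correction (limma, adjusted p 0.0765) and only the groups compared (limma, adjusted p 0.0531). Scaling to spiked-in controls and no filter on dim probes (limma, adjusted p 0.0806) lost it too.

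The LPS response in cordycepin was smaller than that in DMSO by a log2 difference of -0.87 ± 0.24, with a 95% interval of -1.37 to -0.36. This difference did not pass after adjustment (limma, p 0.00236, adjusted p 0.153). With the replicate number as a block the adjusted p was 0.0624, and with the slide as a block it was 0.0597.

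**Figure D2:**
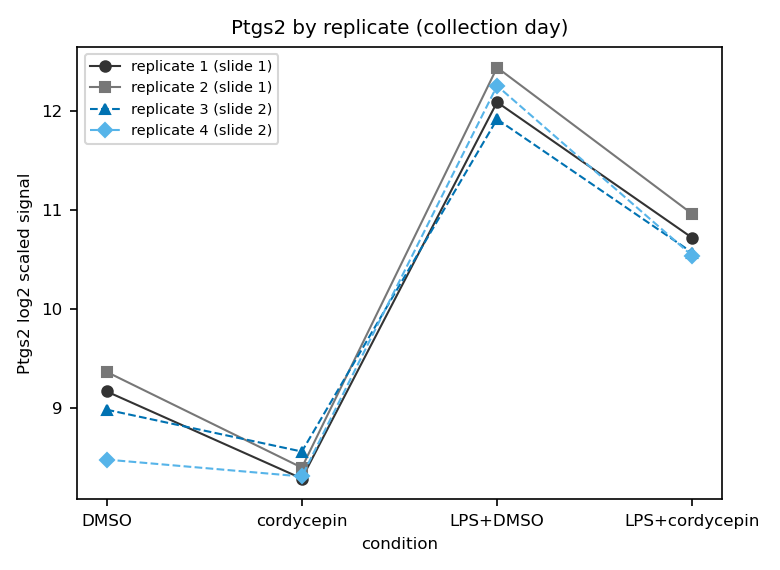
Ptgs2 level (log2 scaled signal, y axis) in the 4 conditions (x axis), with 1 line per replicate number, which is 1 collection day. Solid lines are slide 1 and dashed lines slide 2. Each of the 4 lines falls from DMSO to cordycepin, peaks in LPS+DMSO between 11.91 and 12.44 and comes down to between 10.54 and 10.96 in LPS+cordycepin.

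The genes with the pattern most like that of Ptgs2 were sought by Pearson r over the 16 arrays, among 11601 genes. Traf1 (r = 0.987), Acod1 (r = 0.987) and Slc20a1 (r = 0.985) came first. With quantile-normalised values Osm replaced Slc20a1 among the first 3. These r share the arrays and the spread between conditions, and they are given as a description.

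Pla2g4a, which encodes the enzyme upstream of Ptgs2, was measured by a probe at chr1:151676814-151676873 of mm9, 277870 bases from that of Ptgs2 on the same chromosome and on the other strand. Its level was 14.44, 14.91, 14.39 and 14.06 in DMSO and 14.21, 13.999, 13.99 and 14.23 in cordycepin. It was 14.35, 14.43, 14.28 and 14.09 in LPS+DMSO and 14.35, 14.06, 14.29 and 14.22 in LPS+cordycepin. All 4 groups overlapped. The log2 change with LPS was -0.16 (95% interval -0.47 to 0.15), and that of LPS+cordycepin against LPS+DMSO was -0.06 (-0.37 to 0.25). Cordycepin alone gave -0.34 ± 0.15 (limma, adjusted p 0.139), lower on 3 of 4 days, and without DMSO replicate 4 it was -0.47 (limma, adjusted p 0.0264). This was the only 1 of the 16 fits with an array left out that passed, and their changes were -0.47 to -0.19.

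Ptgs1, the constitutive cyclooxygenase, had levels of 7.43, 7.33, 7.95 and 8.39 in DMSO and 7.71, 8.95, 8.26 and 8.19 in cordycepin. With LPS they were 7.17, 6.88, 7.91 and 7.63 in DMSO and 8.35, 7.83, 7.80 and 7.53 in cordycepin. The groups overlapped and none of the comparisons passed. The change in LPS+cordycepin against LPS+DMSO was 0.48 ± 0.30 (limma, adjusted p 0.330), made up of 1.07 on slide 1 and -0.10 on slide 2. For cordycepin alone it was 0.50 ± 0.30 (limma, adjusted p 0.301), made up of 0.95 on slide 1 and 0.05 on slide 2. The LPS change was -0.38, with an interval of -1.01 to 0.25.

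Ptges encodes the inducible microsomal prostaglandin E synthase that works with Ptgs2. Its brightest probe, the distal one, stood at 14.38, 14.50, 14.53 and 14.52 in DMSO and at 14.74, 14.80, 14.86 and 14.96 in cordycepin. It stood at 14.68, 14.88, 14.63 and 14.86 in LPS+DMSO and at 15.08, 14.93, 15.17 and 15.05 in LPS+cordycepin. The DMSO arrays were below all others and the LPS+cordycepin arrays above all LPS+DMSO arrays, with spans within a group of 0.15 to 0.25.

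At this probe Ptges rose with LPS by 0.28 ± 0.09 (limma, adjusted p 0.0401) and with cordycepin alone by 0.36 ± 0.09 (limma, adjusted p 0.0086). It was higher by 0.30 ± 0.09 in LPS+cordycepin than in LPS+DMSO (limma, adjusted p 0.0223). LPS in the presence of cordycepin gave 0.22 ± 0.09 (limma, adjusted p 0.166), and the 2 LPS responses differed by -0.06 (interval -0.32 to 0.20). On slides 1 and 2 the LPS change was 0.34 and 0.22, that of cordycepin alone 0.33 and 0.38, and that of LPS+cordycepin against LPS+DMSO 0.23 and 0.37. The LPS call was lost when any 1 of 10 of the 16 arrays was left out (DMSO replicates 1 to 4, cordycepin 2 and 3, LPS+DMSO 1, 2 and 4, LPS+cordycepin 1), with changes of 0.24 to 0.31. The LPS+cordycepin call was lost without LPS+DMSO replicate 1 or 3 or LPS+cordycepin replicate 1 or 3, with changes of 0.25 to 0.29.

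The proximal Ptges probe gave other values. It exceeded background clearly on 2 DMSO and 3 cordycepin arrays and on all 8 LPS arrays. Its levels were 5.53, 6.06, 6.14 and 6.28 in DMSO and 6.33, 5.67, 6.52 and 6.44 in cordycepin. In LPS+DMSO they were 7.15, 6.97, 7.38 and 6.74, and in LPS+cordycepin 6.62, 6.86, 7.25 and 7.07. The LPS arrays lay above all arrays without LPS, and cordycepin made no visible separation.

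In a fit of all 21597 probes kept, this probe rose with LPS by 1.06 ± 0.21 or 2.08-fold (limma, adjusted p 0.0026). The LPS groups alone admitted it to that fit, where it is high, so its LPS changes are not read as support. With cordycepin present the LPS change was 0.71 ± 0.21 (limma, adjusted p 0.0535), on all 4 days. LPS+cordycepin against LPS+DMSO gave -0.11 (interval -0.56 to 0.34, limma, adjusted p 0.817), and cordycepin alone gave 0.24 (interval -0.21 to 0.69, limma, adjusted p 0.518). The LPS estimates of the 2 Ptges probes had the same direction, with a larger change at the proximal probe, under the limit just given. With LPS present, where the distal probe passed as higher, the proximal one did not pass and its estimate had the other sign. The difference between the probes was not tested. The distal probe also read far brighter than the proximal one. Why it did, and whether both read the same mRNA, was not tested. The gene calls and counts of Ptges rest on the distal probe alone.

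**Figure D3:**
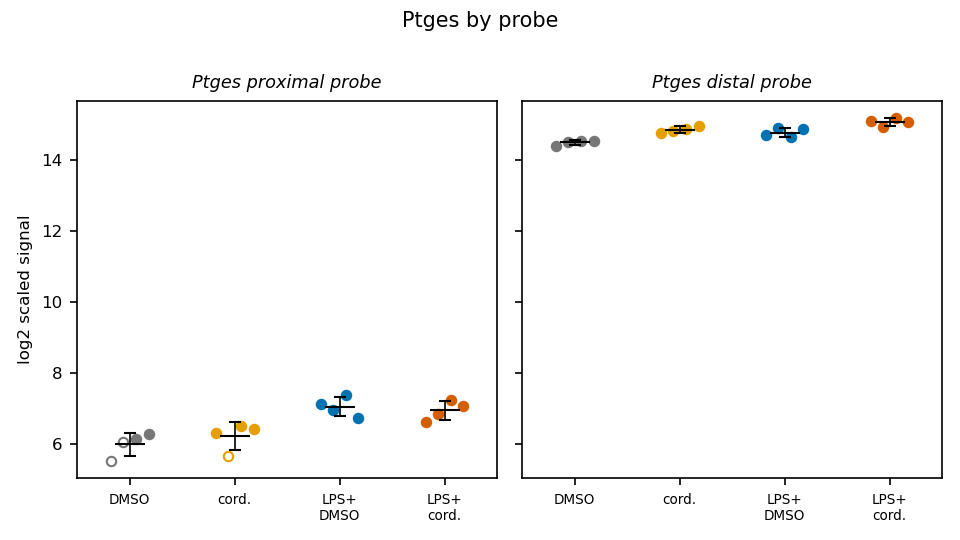
Ptges level (log2 scaled signal, y axis) at the proximal probe (left) and the distal probe (right) in the 4 conditions (x axis, cord. is cordycepin). Points are single arrays, open where the probe was not well above background, and bars give the mean and SD of 4 arrays. The proximal probe lies between 5.53 and 7.38 and the distal one between 14.38 and 15.17.

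The genes most like Ptges at its brightest probe over the 16 arrays were Oas1b (Pearson r = 0.981), Tprkb (r = 0.974) and Tor1aip2 (r = 0.932), and the same 3 came first with quantile-normalised values.

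Hpgds encodes the haematopoietic prostaglandin D synthase. Its probe spans 3529 bases of the genome at chr6:65070081-65073609 (mm9, minus strand) for 60 bases of mRNA, so it crosses an exon junction. Levels were 10.69, 10.65, 10.75 and 10.62 in DMSO and 10.67, 10.68, 10.53 and 10.87 in cordycepin. They were 10.27, 10.51, 10.28 and 10.47 in LPS+DMSO and 10.43, 10.96, 10.52 and 9.95 in LPS+cordycepin. All LPS+DMSO arrays were below all DMSO arrays, with a change of -0.30 ± 0.16 that did not pass (limma, adjusted p 0.249). By the methods' t-test the Benjamini-Hochberg adjusted p of this change was 0.0464. Within the slides the change was -0.28 and -0.32. In LPS+cordycepin the replicates spread over 1.01, from 9.95 to 10.96.

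Tbxas1 encodes thromboxane A synthase. The probe for its mRNA (base 1755 of the transcript) stood between 7.52 and 8.48 on the 16 arrays, with group means of 7.92 (LPS+cordycepin) to 8.10 (cordycepin). Its changes were -0.17 to 0.06 in the 4 comparisons, with intervals no wider than -0.53 to 0.42, and none passed. The other probe, which matches the transcript AK162394 and lies at chr6:38902132-38902191, upstream of the first, was well above background on 1 array, cordycepin replicate 3, at 6.14. Its other 15 values were 2.39 to 4.12.

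The receptors for prostaglandin E2 were dim. Ptger2 was well above background on 2 arrays, cordycepin replicate 3 at 8.60 and LPS+DMSO replicate 4 at 5.00, while the other 14 values were 2.69 to 4.58. No fold is given for it, since no group measured it on all arrays. The replicates of cordycepin thus held 1 high value beside 4.58, 4.09 and 2.82.

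Ptger4 was well above background on 3 DMSO, 3 cordycepin, 4 LPS+DMSO and 2 LPS+cordycepin arrays. Its levels were 7.22, 3.99, 7.01 and 6.52 in DMSO and 6.05, 4.89, 6.61 and 6.11 in cordycepin. With LPS they were 6.69, 7.34, 6.45 and 7.53 in DMSO and 6.03, 5.48, 6.03 and 5.69 in cordycepin. DMSO replicate 2 stood apart as low, and all LPS+cordycepin arrays were below all LPS+DMSO arrays.

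The change of Ptger4 in LPS+cordycepin against LPS+DMSO was -1.19 ± 0.56 and did not pass (limma, adjusted p 0.179), with -1.26 on slide 1 and -1.13 on slide 2. When DMSO replicate 2, which is in neither of these groups but enters the shared spread, was left out of the fit, the same change passed (limma, adjusted p 0.0161). A fit of these 2 groups alone gave an adjusted p of 0.011, and the fit without a filter on dim probes 0.412. Ptger4 was admitted to the test by the LPS+DMSO arrays alone, the group in which it read highest. With LPS the change was 0.82 ± 0.56 (limma, adjusted p 0.413), higher on 2 of 4 days, and 0.09 without DMSO replicate 2. Cordycepin alone gave -0.27 (limma, adjusted p 0.816), and -1.003 without that array (adjusted p 0.0731).

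Ptgir, the prostacyclin receptor, had levels of 9.42, 11.68, 9.08 and 9.58 in DMSO and 8.91, 8.87, 8.68 and 8.55 in cordycepin. They were 9.10, 9.16, 8.69 and 8.48 in LPS+DMSO and 8.68, 8.59, 8.13 and 8.41 in LPS+cordycepin. DMSO replicate 2, the array on which Ptger4 was low, stood above the rest, and all cordycepin arrays were below all DMSO arrays.

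Ptgir changed by -1.19 ± 0.40 in cordycepin against DMSO (limma, adjusted p 0.0602), lower on 4 of 4 days, with -1.66 on slide 1 and -0.71 on slide 2. With LPS it changed by -1.08 ± 0.40 (limma, adjusted p 0.0909), lower on 4 of 4 days. With the replicate number as a block both passed, as given above, and with the slide as a block the adjusted p values were 0.0262 and 0.0423. Without DMSO replicate 2 the cordycepin change was -0.61 (limma, adjusted p 0.0357) and the LPS change -0.50. Without DMSO replicate 3 both passed, at -1.47 and -1.37 (limma, adjusted p 0.0244 and 0.0382).

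Alox5ap, whose product serves the leukotriene branch, had levels of 14.01 to 14.45 on the 16 arrays. Its means were 14.10 (LPS+DMSO) to 14.35 (cordycepin). The changes in the 4 comparisons were -0.14 to 0.16, and the widest limits of their intervals were -0.35 and 0.37. None passed.

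**Figure D4:**
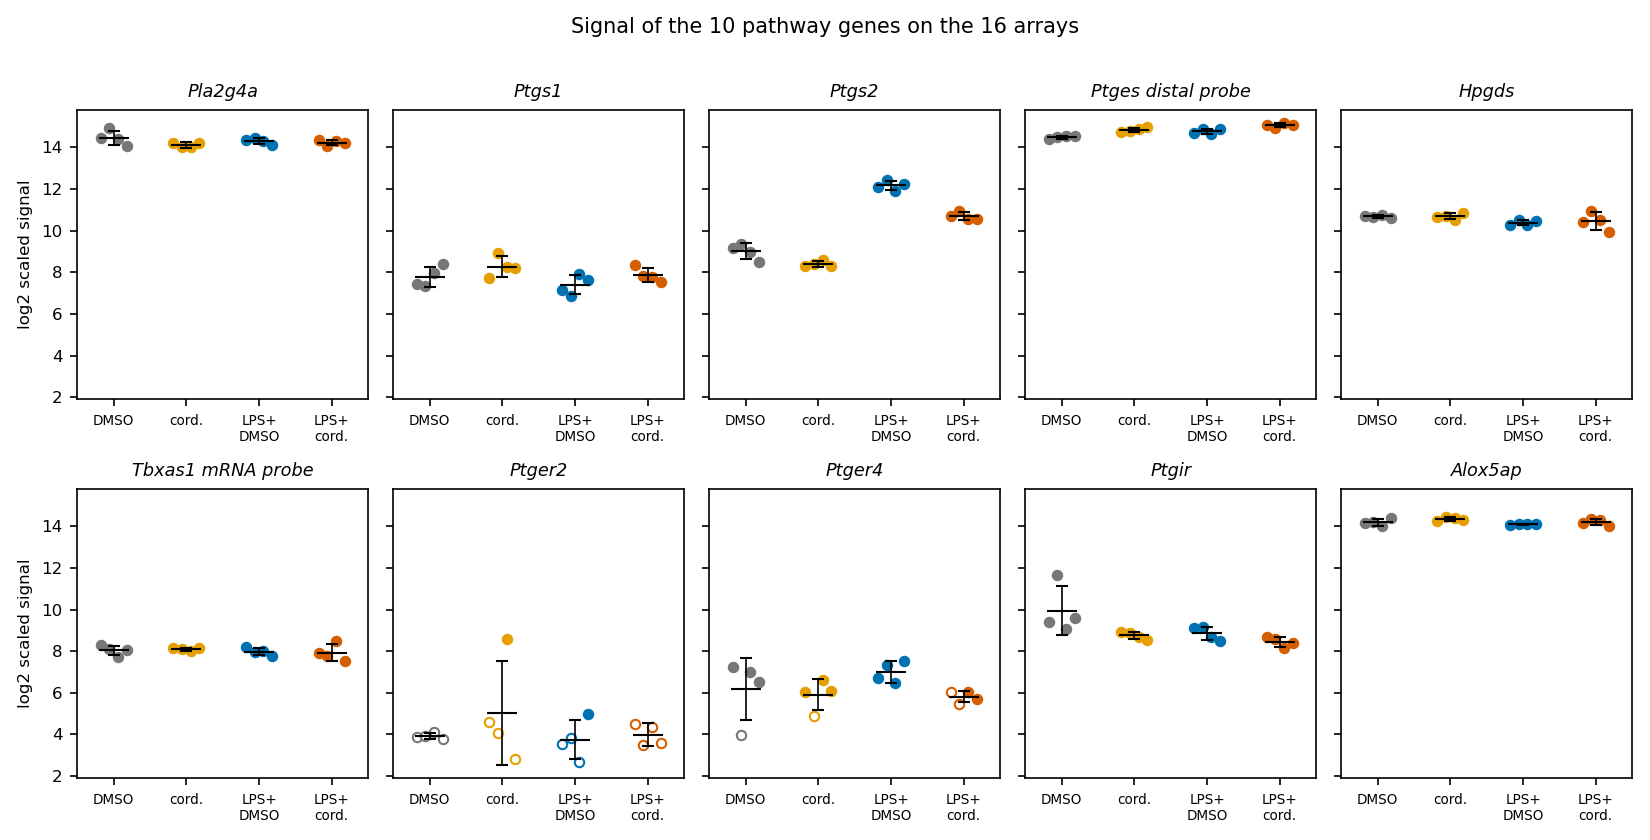
Level (log2 scaled signal, y axis, same scale in all panels) of the 10 genes in the 4 conditions (x axis, cord. is cordycepin). Points are single arrays, open where not well above background, and bars give the mean and SD of 4 arrays. Ptgs2 separates by condition, Ptger2 is mostly open points, and 1 DMSO array stands apart in Ptger4 (3.99) and Ptgir (11.68).

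A list of 60 other genes of arachidonate release, prostanoid and leukotriene synthesis, breakdown and reception was described in the same way. Of these, 31 were tested. With LPS 1 of 31 passed as higher and 1 as lower (6.45%, where 14.9% of all genes passed). In LPS+cordycepin against LPS+DMSO 3 were higher and 1 lower (12.9%, where 19.2% passed). In cordycepin against DMSO 4 were higher and 1 lower (16.1%, where 15.8% passed). In LPS+cordycepin against cordycepin 1 was lower (3.23%, where 8.15% passed). The 3 higher in LPS+cordycepin against LPS+DMSO, Tbxa2r, Ltb4r1 and Pla2g4c, are also among the 4 higher in cordycepin against DMSO. They were admitted to the tests by the cordycepin groups alone, where they are high, so these passes are not read as support. The difference between the LPS responses passed for none of the 31 by limma, where 0.554% of all genes passed. The median log2 change of the 31 was -0.06 with LPS (-0.04 over all genes) and 0.14 in LPS+cordycepin against LPS+DMSO (0.03 over all genes). None of the 5 other prostanoid synthases, the 4 genes of prostanoid breakdown and transport or the 7 of leukotriene synthesis and breakdown passed in a comparison.

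The largest change of the list was in a receptor. Tbxa2r, the thromboxane receptor, exceeded background clearly on none of the 8 arrays without cordycepin and on each of the 8 with it. Its level was 8.13, 8.09, 8.19 and 8.20 in cordycepin and 8.37, 8.28, 8.66 and 8.81 in LPS+cordycepin, and the 8 arrays without cordycepin read 2.75 to 3.96. Set against the dimmest signal well above background, it was at least 8.47-fold higher in cordycepin than in DMSO (limma, adjusted p 3.92e-09). It was at least 9.99-fold higher in LPS+cordycepin than in LPS+DMSO (limma, adjusted p 1.79e-09). With normexp background correction, whose offset draws dim values together, the 2 Tbxa2r changes were 1.89 and 2.43 on the log2 scale, below these bounds. Ltb4r1, a leukotriene B4 receptor, rose by 2.05 ± 0.41 with cordycepin alone (limma, adjusted p 0.00208) and by 1.90 ± 0.41 with LPS present (limma, adjusted p 0.00313), and was well above background on 2 of 4 arrays in each group without cordycepin. With normexp the first of these Ltb4r1 changes was 0.63 and did not pass (limma, adjusted p 0.179), and the second was 0.97. The second was lost by the methods' t-test (Benjamini-Hochberg adjusted p 0.0761). Tbxa2r and Ltb4r1 were admitted to the tests by the cordycepin groups alone, where they are high, so their passing is not read as support.

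Among the phospholipases, Pla2g4c, a relative of Pla2g4a, rose 5.06-fold with cordycepin alone (limma, adjusted p 8e-06) and 5.05-fold with LPS present (limma, adjusted p 5.66e-06), from groups in which 1 of 4 arrays was well above background. It too was admitted by the cordycepin groups alone, and with normexp its changes were 0.91 and 0.94 on the log2 scale. Pla2g15, the lysosomal phospholipase, fell with LPS from 9.48 to 9.61 in DMSO to 8.14 to 8.44 in LPS+DMSO, a change of -1.35 ± 0.11 (limma, adjusted p 2.99e-07). It fell also in the presence of cordycepin, by 1.16 on the log2 scale, and by 0.41 with cordycepin alone (limma, adjusted p 2.86e-06 and 0.0148). The last call was lost without cordycepin replicate 1 (adjusted p 0.05) or 2 (adjusted p 0.0586).

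Pla2g5, a secreted phospholipase, and Plaat3, a phospholipase and acyltransferase, passed by less. Pla2g5 rose by 0.40 with LPS (limma, adjusted p 0.0266) and was lower by -0.35 in LPS+cordycepin than in LPS+DMSO (limma, adjusted p 0.0470), where its dimmer probe gave 0.40 (adjusted p 0.0697) and -0.04 (adjusted p 0.913). The LPS call was lost without any 1 of 5 arrays and the other without any 1 of 10. Plaat3 rose by 0.45 with cordycepin alone (limma, adjusted p 0.0215), a call lost without DMSO replicate 1 or cordycepin replicate 3 or 4. Alox5, which encodes the lipoxygenase that works with Alox5ap, had means of 10.57 to 10.76 in the 4 groups, and Ltc4s, a leukotriene C4 synthase, 12.62 to 12.92.

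**Figure D5:**
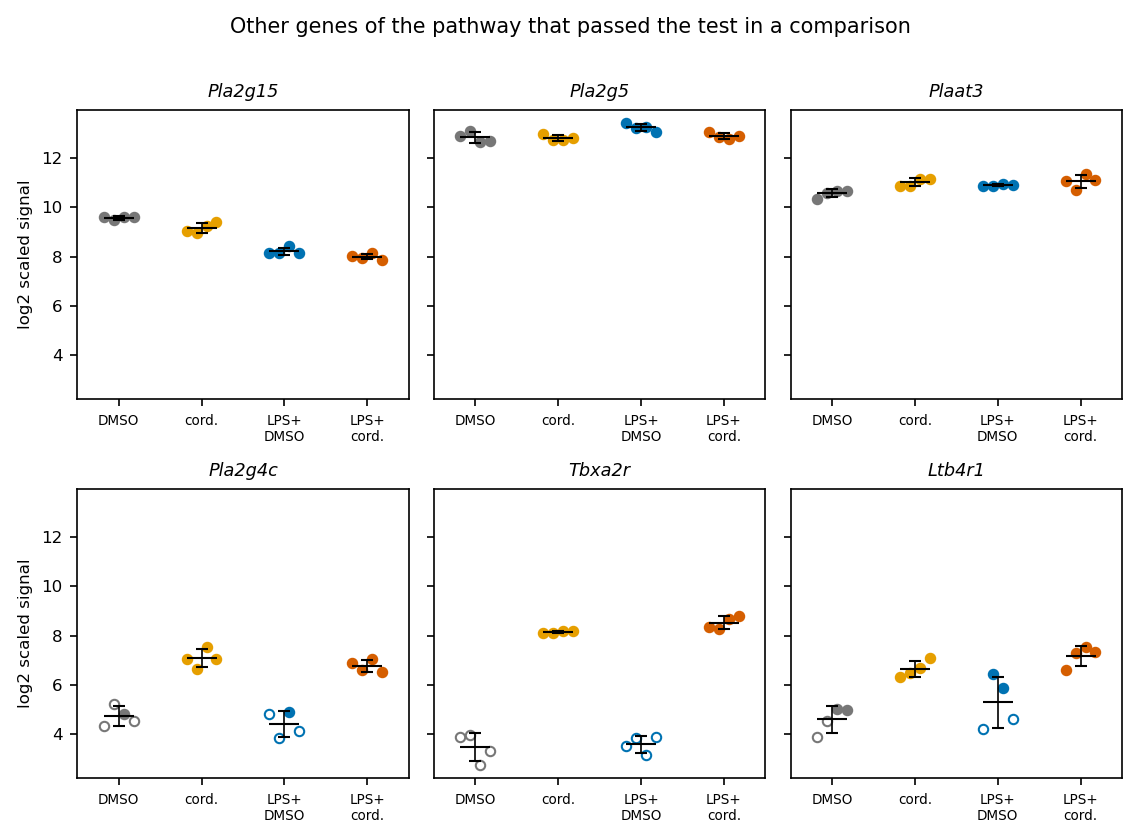
Level (log2 scaled signal, y axis) of the 6 other pathway genes that passed in at least 1 comparison, in the 4 conditions (x axis, cord. is cordycepin). Points are single arrays, open where not well above background, and bars give the mean and SD of 4 arrays. Tbxa2r reads 8.09 to 8.81 on the 8 arrays with cordycepin and 2.75 to 3.96 on the others, while Pla2g15 is lower on the 8 arrays with LPS.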

How the data were processed

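RNA from RAW264.7 cells was labelled with Cy3 and hybridised to 16 Agilent mouse 1-colour arrays. Per the file headers, the deposited intensity values are processed spot signals made with Agilent Feature Extraction 10.7.3.1 (the submitters' processing notes name 10.10.1.1), with background and spatial trend removed and no normalization between arrays. The authors also deposited a log2 value table of 25775 spots (23730 probes), normalised between arrays by a method not given in the sources used here, which served as an alternative. Groups came from the sample titles.

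Spots marked as outliers were dropped (127 probe values were then missing), spots of a probe were averaged, and each array was centred on the 75th percentile of those 18064 probes that all 16 arrays read well above background. Probes so read by all 4 arrays of a group were kept (21597), the brightest probe stood for its gene, and 15877 genes were tested with limma 3.58.1 in R 4.3.3 with Benjamini-Hochberg adjustment. Intervals are 95%. The number of arrays limits the precision. For the array's 55681 probes, names were updated through RefSeq by accession (27650), symbol (3406) or synonym (321), and 24304 kept the name on the array. Probe positions are on mm9 as in the files.

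The members and gene lists were chosen with earlier results of these data known. 1 marker gene is not reported here. Named genes were the members, the other pathway genes that passed and, for likeness, the 3 nearest genes. Per the labels, equal replicate numbers share a collection day, so the numbers pair the arrays. Residuals of same-numbered arrays correlated at a mean r of 0.197 (20 of 24 pairs over 0.1), arrays of another number on the same slide at 0.176 and on the other slide at -0.187. On simulated data for LPS+DMSO against DMSO (15877 genes, 200 changed), 83 of 100 genes changed by 1 on the log2 scale and 95 of 100 changed by 2 were recovered, with 15 false calls. The share changed there was smaller than the 14.9% of genes that passed in the data, so these rates are not carried over to the data. Alternatives were other scalings, normexp background correction (offset 50), filters, probe choices, blocks, tests and thresholds, and each array left out.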

Additional observations from a re-analysis of the deposited data

Results flagged for a closer look

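In none of the 48 groups of 4 values of the member probes did the gap of 1 array to the next, as a share of the group's range, pass the limit of Dixon's test. DMSO replicate 2 came near it for Ptgir (0.809) and Ptger4 (0.785). Over all 76 groups of 4 examined, 4 passed it, where chance gives about 1 in 20. Pla2g15 stood at 9.475 in DMSO replicate 2, with the other DMSO arrays at 9.599 to 9.612, and at 8.436 in LPS+DMSO replicate 3, with the others at 8.14 to 8.16. The dimmer Pla2g5 probe stood at 9.08 in DMSO replicate 3, with the others at 9.503 to 9.578. Plaat3 stood at 10.967 in LPS+DMSO replicate 3, with the others at 10.878 to 10.893.

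Of 19 genes whose LPS responses with and without cordycepin were set against each other, 2 passed by limma, both genes of the LPS check. Over all genes 0.554% passed. The 19 were chosen (members, pathway genes that passed a comparison, and LPS check genes), so their count is not set against that share. The response of Tnf, a cytokine, was smaller with cordycepin by a log2 difference of -1.547 (limma, adjusted p 0.00037). That of Nfkbia, an inhibitor of NF-kB, differed by -0.738 (limma, adjusted p 0.0109). Without LPS, cordycepin raised Nfkbia by 0.689 (limma, adjusted p 2.37e-05) and Tnf by 0.478 (limma, adjusted p 0.00916). With LPS present, its change was -0.05 for Nfkbia (limma, adjusted p 0.78) and -1.069 for Tnf (limma, adjusted p 5.29e-06). The smaller Nfkbia response thus went with a higher level without LPS, while its level with LPS hardly differed.

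Among probes left out of the tests as too dim, Ptger2 was read well above background at 8.603 on cordycepin replicate 3 and at 5.0 on LPS+DMSO replicate 4. The upstream Tbxas1 probe was so read at 6.144 on cordycepin replicate 3, the array that also held the high Ptger2 value.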

How the results depend on the processing

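Of 1900 recomputed values for single genes over 34 other settings, 1788 kept their side of the threshold, 94 lost the call and 18 gained one. Of the 1788, 48 changed sign, none of them passing in either setting. Of the 9 member genes, 2 passed with LPS. This was 1 with quantile normalization, scaling to spiked-in controls, the authors' value table, no filter on dim probes, only the groups compared, at least 2-fold as well or an adjusted p under 0.01, and 1 to 2 with an array left out. In LPS+cordycepin against LPS+DMSO 2 passed, and 1 did with the percentile over all probes, spiked-in controls, no filter, the mean of a gene's probes, 2-fold or the stricter p, and 3 with the authors' value table or the unadjusted t-test, Ptger4 being added (1 to 3 with an array left out). In cordycepin against DMSO 2 passed, 3 with the percentile over all probes, 1 with normexp, the mean of probes, only the groups compared, the methods' t-test adjusted or the stricter p, and 0 with spiked-in controls, no filter or 2-fold (1 to 3 with an array left out). In LPS+cordycepin against cordycepin 1 passed, and 2 with the mean of probes or the unadjusted t-test. Of the other 31 pathway genes, 2 passed with LPS, 4 with the percentile over all probes and 1 with spiked-in controls, the authors' value table, only the groups compared, the adjusted t-test, 2-fold or the stricter p (1 to 3 with an array left out). In LPS+cordycepin against LPS+DMSO 4 passed, and 1 among probes well above background on all arrays. For LPS+cordycepin against cordycepin 1 passed, and 5 with the unadjusted t-test. For cordycepin alone 5 passed, 3 with spiked-in controls, the adjusted t-test, 2-fold or the stricter p, and 2 among probes well above background on all arrays. The causes were not tested. The shares of all genes at these other settings are not given here, so the counts are not read as a result about the lists. With the replicate block, 3 members passed with LPS and 3 with cordycepin alone, Ptgir being added to each, and no other member's call changed. Over all genes the block moved the count with LPS from 2372 to 2882 and that with cordycepin alone from 2505 to 2939. It moved the count for the difference between LPS responses from 88 to 208. Scaling to spiked-in controls moved the median of all genes to -0.135 with LPS, -0.121 in LPS+cordycepin against LPS+DMSO and -0.357 in LPS+cordycepin against cordycepin. Ptger2 and the receptors near background are limited by their signal.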
